A study of Homo sapiens with 9 samples.

Results

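The genes described here are 10 transcription factors and feedback genes of the ATF4 pathway, ATF4, DDIT3, ATF3, ATF5, CEBPB, CEBPG, TRIB3, CHAC1, PPP1R15A and SESN2, of 18239 genes measured. They were listed by name for their known roles, with earlier results of these data known. All 10 had a probe set that carried exactly 1 gene symbol. For each gene the brightest such probe set, by its mean over the 9 arrays, was used, and the other probe sets served as a check. The cells were K562, an established human erythroleukaemia line, transduced with retroviral supernatant that carried 1 of 3 forms of calreticulin (CALR), a chaperone of the endoplasmic reticulum. There were 3 arrays with the Del52 form, 3 with the Ins5 form and 3 with the wild-type form. Del52 and Ins5 are the mutations of the last CALR exon known from myeloproliferative neoplasms, and by its title the study asked how they affect the responses to unfolded protein and to oxidative stress. All 3 groups were transduced and selected on the NGFR surface marker, so the wild-type group also carried a CALR transgene and no untransduced cells were included. K562 is a single leukaemia line that keeps its own CALR gene. Nothing in the labels says that the 3 replicates of a group were separate cultures, so p-values measure the spread between these samples only, which may be technical.

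The integrated stress response starts when stress-sensing kinases, among them PERK in the endoplasmic reticulum, phosphorylate the translation factor eIF2. Protein synthesis then slows as a whole while the mRNA of ATF4 is translated more, so that ATF4 protein is set largely at translation, which an array of RNA does not measure. ATF4 pairs with other basic leucine zipper (bZIP) factors on composite DNA elements of its target genes, and several of those targets close feedback loops on the pathway.

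The start regions of these genes show where such elements occur in the letters of the genome. RefSeq (GRCh38.p14) gave 19 windows for the 10 genes, each running from 250 bases before a start to 50 bases after it, and windows of 1 gene can overlap. Both strands were searched for TGATGNAA, the letters of the C/EBP-ATF response element bound by ATF4 with a C/EBP partner, and for TGACGTCA, the cAMP response element bound by ATF and CREB factors. The first motif occurred in 3 of the 19 windows, 1 each of ATF3, CEBPG and CHAC1, against 1270 of all 35116 windows (3.62%). The second occurred in 1 of the 19, that of PPP1R15A, against 649 of all windows (1.85%). The 4 windows with a match are printed 5′ to 3′ because they belong to the genes whose levels are described next, with the match in capitals. In CHAC1 the match is to the reverse complement, and in none of the 19 windows did the 2 motifs overlap. A match describes letters and is not evidence of a bound site.
ATF3 promoter: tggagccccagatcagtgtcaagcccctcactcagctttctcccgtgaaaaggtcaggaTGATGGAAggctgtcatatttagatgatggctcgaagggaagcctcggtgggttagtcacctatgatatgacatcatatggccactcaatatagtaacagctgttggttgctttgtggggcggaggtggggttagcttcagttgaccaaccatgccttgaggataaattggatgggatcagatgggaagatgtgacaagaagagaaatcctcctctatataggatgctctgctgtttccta
CHAC1 promoter: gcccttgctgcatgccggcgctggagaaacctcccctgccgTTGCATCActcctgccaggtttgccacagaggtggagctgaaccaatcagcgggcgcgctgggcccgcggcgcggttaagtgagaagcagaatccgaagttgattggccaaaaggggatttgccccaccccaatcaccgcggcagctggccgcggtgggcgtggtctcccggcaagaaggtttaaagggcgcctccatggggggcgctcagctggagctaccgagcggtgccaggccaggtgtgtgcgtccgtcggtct
CEBPG promoter: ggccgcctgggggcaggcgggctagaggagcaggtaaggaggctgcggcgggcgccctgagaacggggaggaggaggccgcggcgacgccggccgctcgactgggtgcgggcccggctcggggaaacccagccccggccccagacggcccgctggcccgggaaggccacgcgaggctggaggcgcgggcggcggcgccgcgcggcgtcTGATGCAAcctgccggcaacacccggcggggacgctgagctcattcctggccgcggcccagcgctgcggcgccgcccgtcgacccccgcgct
PPP1R15A promoter: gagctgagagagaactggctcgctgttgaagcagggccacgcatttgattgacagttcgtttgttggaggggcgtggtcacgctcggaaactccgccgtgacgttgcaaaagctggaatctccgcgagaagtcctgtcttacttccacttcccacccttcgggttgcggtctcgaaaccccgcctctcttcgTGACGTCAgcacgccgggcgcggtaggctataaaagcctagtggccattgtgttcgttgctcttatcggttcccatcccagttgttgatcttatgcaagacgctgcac

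The ATF3 window lies at chr1:212565157-212565456 and belongs to the more upstream of the 2 ATF3 windows. That of CHAC1 lies at chr15:40953221-40953520, that of CEBPG at chr19:33373863-33374162 and that of PPP1R15A at chr19:48872171-48872470, all on the plus strand. The match began 191 bases before the start in ATF3, 209 bases before it in CHAC1, 42 bases before it in CEBPG and 58 bases before it in PPP1R15A. The other 15 windows, including all those of ATF4, DDIT3, ATF5, CEBPB, TRIB3 and SESN2, held neither motif.

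Values are the authors' deposited RMA expression values on the log2 scale, so that a difference of 1 is a doubling of signal. Array medians lay between 3.73 and 3.76. Of 8 measured K562 markers, 7 lay above every antigenomic background probe set (1.53 to 6.52) on all 9 arrays, and EPOR, at 3.59 to 4.37, did not. Of 16 markers of myeloid, lymphoid, fibroblast and epithelial cells, 14 lay below the brightest background probe set on all arrays, while LYZ (9.40 to 9.83) and EPCAM (8.22 to 8.75) lay above it. The mean of the 8 K562 markers was 9.13 to 9.30 with Del52, 9.06 to 9.15 with Ins5 and 9.01 to 9.11 with wild-type CALR, and the part of this difference in the results was not tested. CALR read 7.42 ± 0.18 with Del52, 7.40 ± 0.12 with Ins5 and 7.57 ± 0.24 with wild-type CALR (SD, n = 3 each). NGFR, the marker used for selection, averaged 3.42 ± 0.07 on Del52 arrays, 3.43 ± 0.03 on Ins5 arrays and 3.36 ± 0.05 on wild-type arrays, below the array medians and within the background range. In bulk RNA, fewer cells that express a gene and less RNA per cell cannot be told apart.

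Del52 replicate 1 and 2 wild-type arrays stood apart from the rest over the whole transcriptome. The first principal component of all genes other than the 10 held 70.6% of the variance, with wild-type replicate 2 at -0.57 and wild-type replicate 3 at 0.57 at its ends. The second held 9.9%, with Del52 replicate 1 at 0.79 and every other array at or below 0.12. For the 10 genes, Del52 and wild type were also compared with 1 of these 3 arrays left out. A difference that then moved by over 1.5 times is given with that value. For single genes of the lists below such values are not given.

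In Del52 cells all 10 genes had a lower mean than in wild-type cells, and none passed the test. Over all 9 arrays the means were lower by 43.6% in ATF3, 37.9% in CHAC1, 35.1% in SESN2 and 29.8% in TRIB3, and by 3.6% in ATF5. That order depended on single arrays: without wild-type replicate 3 the log2 difference of ATF3 was -0.142, against -0.83 with all arrays. In Ins5 cells 8 of the 10 lay below wild type, but by small amounts, with a median log2 difference of -0.07.

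ATF4, the factor that gives the pathway its name, was the steadiest of the 10. It read 10.23, 10.48 and 10.50 with Del52, 10.69, 10.48 and 10.62 with Ins5 and 10.68, 10.64 and 10.48 with wild-type CALR. Del52 replicate 1 was the lowest array, and the other 2 Del52 arrays overlapped both other groups. The log2 fold change of Del52 against wild type was -0.20 ± 0.09 (SE; limma, Benjamini-Hochberg adjusted p = 0.743), with a 95% interval of -0.42 to 0.02 and a value of -0.109 without Del52 replicate 1, and that of Ins5 against wild type was -0.00 ± 0.09 (adjusted p = 1).

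DDIT3 encodes CHOP, the bZIP factor that promotes cell death under lasting stress. It read 6.08, 6.37 and 6.15 with Del52, 6.53, 6.14 and 6.75 with Ins5 and 6.61, 6.72 and 6.32 with wild-type CALR. The Del52 arrays all lay at the low end, with 1 Ins5 and 1 wild-type array among them. The difference of Del52 from wild type was -0.35 ± 0.17 on the log2 scale (limma adjusted p = 0.745). On 3 Del52, 1 Ins5 and 1 wild-type array DDIT3 was below the brightest background probe set (6.52). A second probe set spanned the same 0.67 log2 units over the arrays. On it the difference of Del52 from wild type was -0.388 ± 0.134 (limma unadjusted p = 0.0204, adjusted p = 0.655). This probe set was below the brightest background probe set on every array but wild-type replicate 2 (6.57).

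CEBPB and CEBPG are C/EBP factors that pair with ATF4. CEBPB read 7.85, 8.37 and 8.24 with Del52, 8.76, 8.37 and 8.41 with Ins5 and 8.66, 8.53 and 8.63 with wild-type CALR, so that every Del52 array lay below every wild-type array. On the probe sets used, its log2 difference of -0.46 ± 0.15 from wild type was the only one of the 10 with an unadjusted p under 0.05 (limma adjusted p = 0.625). It was -0.303 without Del52 replicate 1. CEBPG read 7.45, 8.13 and 7.93 with Del52, 8.54, 8.19 and 7.98 with Ins5 and 8.39, 8.06 and 8.48 with wild-type CALR, and the groups overlapped. Its log2 difference from wild type was -0.48 ± 0.21 in Del52 (limma adjusted p = 0.717), and -0.283 without Del52 replicate 1. On its second probe set it was -0.289.

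ATF5 encodes a bZIP factor whose mRNA, like that of ATF4, is translated more under stress. It was the gene least shifted in Del52, reading 6.51, 6.27 and 6.93 with Del52, 6.90, 6.72 and 7.27 with Ins5 and 6.75, 7.16 and 5.95 with wild-type CALR. The lowest and the second highest array were both wild type, and the 3 groups overlapped. The log2 difference was -0.05 ± 0.31 for Del52 (limma adjusted p = 1) and 0.35 ± 0.31 for Ins5 (adjusted p = 0.91) against wild type. The Del52 value was 0.178 on 1 other ATF5 probe set, 0.035 on another and -0.12 on the last, and with 1 array left out it lay between -0.386 without wild-type replicate 3 and 0.218 without wild-type replicate 2, and was -0.022 without Del52 replicate 1. ATF5 was below the brightest background probe set on 2 Del52 arrays and 1 wild-type array.

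ATF3, a stress-inducible bZIP factor that often represses transcription, varied most. It read 5.72, 8.13 and 6.45 with Del52, 8.09, 8.02 and 6.48 with Ins5 and 8.08, 5.74 and 8.96 with wild-type CALR. The wild-type arrays held the highest value and almost the lowest, and the gene spanned 3.24 log2 units over the arrays. On 2 Del52, 1 Ins5 and 1 wild-type array it was below the brightest background probe set, so no fold is given for that span. The log2 difference of Del52 from wild type, -0.83 ± 0.94, had a 95% interval of -3.0 to 1.35 (limma adjusted p = 0.946). Leaving out Del52 replicate 1 gave -0.303, leaving out wild-type replicate 2 gave -1.754 and leaving out wild-type replicate 3 gave -0.142. Of the 7 ATF3 probe sets, 3 others spanned 3.10, 3.35 and 3.28 log2 units over the arrays, close to the 3.24 of the one used, while the remaining 3 lay between 1.99 and 2.87 and spanned 0.20 to 0.33.

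TRIB3, a pseudokinase that binds ATF4 and CHOP and restrains them, read 7.97, 8.91 and 8.86 with Del52, 9.56, 8.94 and 8.97 with Ins5 and 9.30, 8.98 and 9.0 with wild-type CALR. On this probe set every Del52 array lay below every array of both other groups. On the second TRIB3 probe set the groups overlapped, at 6.12, 7.19 and 7.09 with Del52, 7.91, 7.08 and 7.15 with Ins5 and 7.43, 7.19 and 7.22 with wild-type CALR. The log2 difference of Del52 on the first was -0.51 ± 0.27 against wild type (limma adjusted p = 0.773) and -0.57 ± 0.27 against Ins5 (adjusted p = 0.905). Without Del52 replicate 1 these were -0.208 and -0.27. PPP1R15A encodes GADD34, which brings phosphatase 1 to eIF2 and so ends the response. It read 6.81, 7.32 and 6.49 with Del52, 7.28, 7.29 and 6.87 with Ins5 and 7.07, 6.56 and 7.81 with wild-type CALR, and both ends of its range lay in groups that overlapped, with the lowest array in Del52 and the highest in wild type. Its log2 difference from wild type was -0.28 ± 0.33 in Del52 (limma adjusted p = 0.95). That difference was -0.57 without wild-type replicate 2 and 0.054 without wild-type replicate 3. On Del52 replicate 3 (6.49) PPP1R15A was below the brightest background probe set.

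CHAC1 degrades glutathione and is a target of ATF4 and CHOP. It read 5.79, 7.16 and 6.47 with Del52, 7.46, 7.18 and 6.40 with Ins5 and 7.39, 6.30 and 7.78 with wild-type CALR. The wild-type arrays spanned 1.48 of the 1.99 log2 units that the gene spanned over all arrays, and 2 Del52, 1 Ins5 and 1 wild-type array were below the brightest background probe set. The log2 difference of Del52 from wild type was -0.69 ± 0.48 (limma adjusted p = 0.863), and leaving out Del52 replicate 1, wild-type replicate 3 or wild-type replicate 2 gave -0.347, -0.378 or -1.115. The second CHAC1 probe set, dimmer than the first, gave -0.304 against wild type and -0.063 against Ins5, where the first gave -0.55. SESN2, an inhibitor of mTORC1 that senses leucine, read 7.06, 8.00 and 7.69 with Del52, 8.38, 8.07 and 7.83 with Ins5 and 8.45, 7.82 and 8.37 with wild-type CALR. Del52 replicate 1 was again the lowest, and the difference from wild type was -0.62 ± 0.27 (limma adjusted p = 0.711), and -0.363 without that array.

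**Figure D1:**
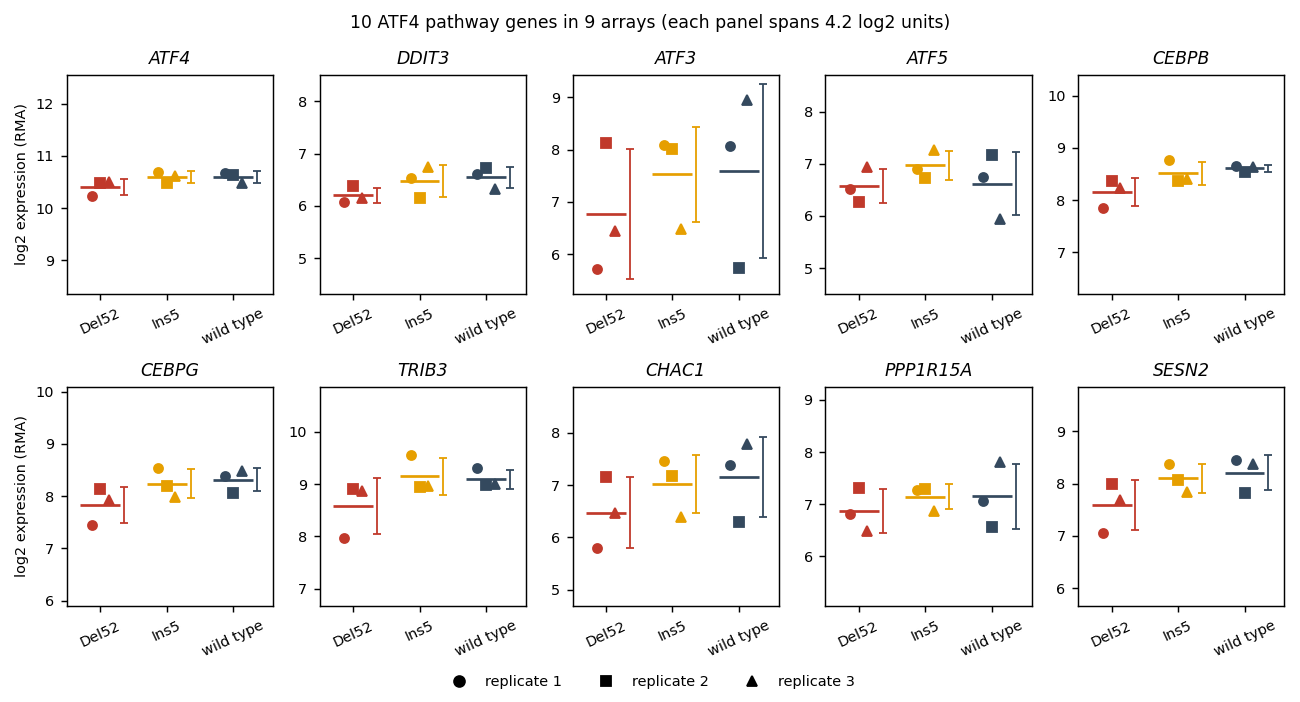
Log2 RMA value of each of the 10 genes on the 9 arrays, in 1 panel per gene of equal height, with Del52, Ins5 and wild-type arrays side by side, a line at each group's mean and a bar for its SD. ATF3 spans 5.72 to 8.96, whereas ATF4 spans 10.23 to 10.69, and the Del52 points include the lowest array of 9 for 9 of the genes.

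Set against all genes, 10 of 10 had a negative log2 fold change in Del52 against wild type, where 45.4% of all 18239 genes did. The median of the 10 was -0.466 against 0.01 for all genes. The 10 were chosen with earlier results of these data known, and many of them moved together across arrays. Their signs are therefore not 10 separate observations, and the count was not tested. By limma with Benjamini-Hochberg adjustment 0 of the 10 passed, as did 0% of all genes, whose smallest adjusted p was 0.603. At an unadjusted p under 0.05 the count was 1 of 10, against 7.05% of all genes. With the mean of all probe sets per gene it was 2 of 10, against 6.80%. For 2 of the 10, CEBPB and TRIB3, every Del52 array lay below every wild-type array on the probe set used, against 4.36% of all genes. With 1 array left out the count at an unadjusted p under 0.05 was 1 to 4, and the 4 arose without wild-type replicate 2, where 9.17% of all genes had such a p. Without Del52 replicate 1 all 10 were negative, and the median was -0.29. With Del52 replicate 2 or any 1 of the 3 wild-type arrays left out, 9 of 10 were negative.

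In Ins5 against wild type, 8 of 10 were negative against 40.4% of all genes, with a median of -0.07 against 0.02 for all genes. Again 0 of 10 passed the adjusted limma test, as did 0% of all genes, and 0 of 10 had an unadjusted p under 0.05, against 7.41% of all genes. In 0 of 10 did every Ins5 array lie below every wild-type array, against 3.30% of all genes. With 1 array of the Ins5 or wild-type group left out, the number of negative genes changed: 3 of 10 were negative without Ins5 replicate 3, 4 without wild-type replicate 3 and 5 without wild-type replicate 1.

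The 2 mutants were compared directly as well. In Del52 against Ins5, 10 of 10 were negative, against 54.6% of all genes, with a median of -0.40 against -0.01 for all genes. In this contrast too 0 of 10 passed, as did 0% of all genes, 1 of 10 (CEBPB, unadjusted p = 0.044) had an unadjusted limma p under 0.05 against 5.77%, and 1 of 10 (TRIB3) had all Del52 arrays below all Ins5 arrays against 6.28%. Without Del52 replicate 1 the median was -0.23, and without Del52 replicate 2 the count at an unadjusted p under 0.05 was 4, against 5.10% of all genes in that fit. The same Del52 arrays enter both of these contrasts. Over the 3 groups at once, 0 of 10 passed limma's adjusted F test, as did 0% of all genes, and 1 of 10, CEBPB (adjusted p = 0.679), had an unadjusted p under 0.05 against 7.23%.

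**Figure D2:**
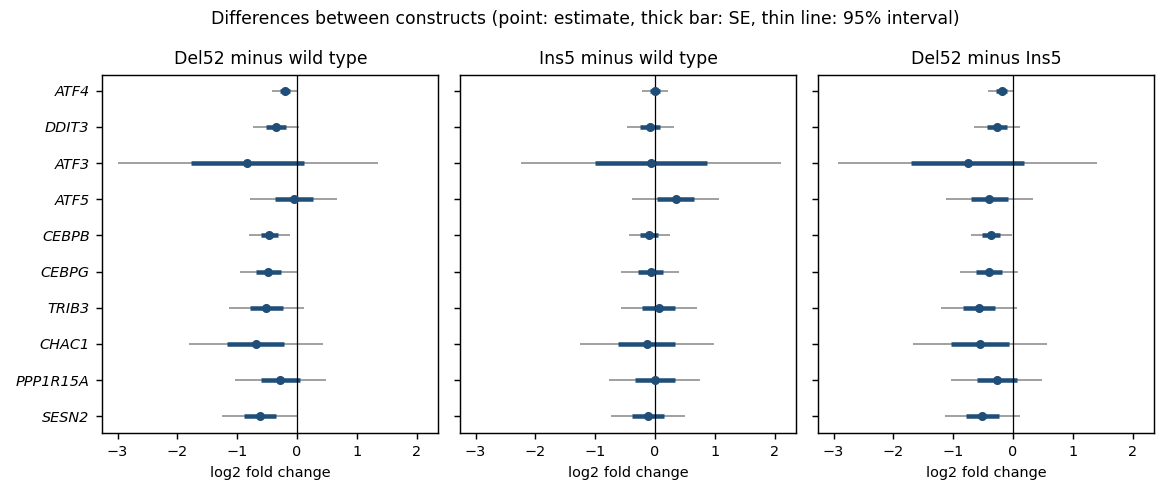
Log2 fold change of the 10 genes for each mutant against wild type and for Del52 against Ins5, with limma's SE as a thick bar and its 95% interval as a thin one. All 10 points are negative in both contrasts of Del52, and the intervals of 9 genes include 0 in all contrasts, with CEBPB the exception in those of Del52.

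The 10 genes varied more between replicates than most genes. The median within-group SD of the 10 was 0.38 log2 units, against 0.098 over all genes. All 10 lay above the median level of all genes, and the part of level in this difference was not tested. ATF3 had an SD of 1.31, rank 10 of 18239 in falling order, and CHAC1 had 0.67, rank 196. ATF4 had 0.12, rank 6949. The share of each gene's variance that lay between groups was 58.0% for CEBPB, 45.4% for ATF4, 11% for ATF3 and 10.7% for PPP1R15A. Its median was 39.8% for the 10 and 21.3% over all genes.

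Across arrays many of the 10 genes moved together. Over the 9 arrays, 45 pairs were compared, each with an exact two-sided permutation test over 362880 pairings. By Pearson's r, 37 of the correlations were positive, and 18, all positive, had an adjusted p under 0.05. By rho not all of these 18 passed. The adjusted p of the same permutation test was 0.11 for ATF4 with TRIB3 and with CEBPB, and 0.101 for ATF4 with DDIT3. It was 0.0646 for ATF3 with SESN2. For CHAC1 it was 0.12 with CEBPB, 0.119 with TRIB3 and 0.101 with PPP1R15A. The rest of the 18 passed by rho too. Of the 45, 82.2% were positive and 44.4% were at or above 0.7, against 51.0% and 8.3% of all pairs of the 18239 genes. Those pairs include genes of every level, and the part of level was not tested. CEBPG and SESN2 had the highest, r = 0.98 (exact permutation p = 6.89e-05, adjusted p = 0.00133) and rho = 0.93 (exact permutation p = 0.00075, adjusted p = 0.0169), with r = 0.97 without Del52 replicate 1 and Ins5 replicate 1, the arrays farthest from the median of CEBPG. ATF3 and CHAC1 gave r = 0.97 (exact permutation p = 0.000118, adjusted p = 0.00133) and rho = 0.88 (exact permutation p = 0.00308, adjusted p = 0.0231), and r = 0.98 with Del52 replicate 1 and wild-type replicate 2 left out. CEBPB and TRIB3 gave r = 0.95 (exact permutation p = 5.51e-06, adjusted p = 0.000248) and rho = 0.98 (exact permutation p = 4.96e-05, adjusted p = 0.00223), and r = 0.80 without Del52 replicate 1 and Ins5 replicate 1. Around the group means these 3 pairs had r of 0.97, 0.98 and 0.97, so that they varied together within groups too. CHAC1 and ATF3 were each correlated with CEBPG and with PPP1R15A. For CHAC1, r was 0.93 to CEBPG (exact permutation p = 0.000116, adjusted p = 0.00133) and 0.83 to PPP1R15A (exact permutation p = 0.00609, adjusted p = 0.0171). By rho CHAC1 and PPP1R15A did not pass (rho = 0.73, exact permutation p = 0.0311, adjusted p = 0.101). For ATF3, r was 0.82 to CEBPG (exact permutation p = 0.00498, adjusted p = 0.016) and 0.9 to PPP1R15A (exact permutation p = 0.00106, adjusted p = 0.00529). All arrays share their normalization, and the pairs share genes, so the 45 values are not independent.

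**Figure D3:**
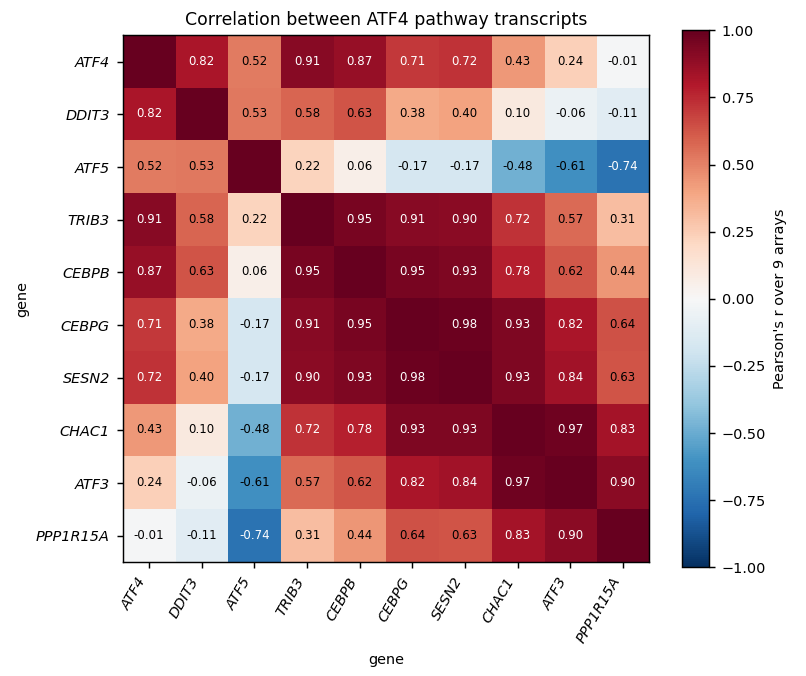
Pearson's r over the 9 arrays for each pair of the 10 genes, in colour and as a number. Values among CEBPB, CEBPG, TRIB3 and SESN2 lie between 0.90 and 0.98, those among ATF3, CHAC1 and PPP1R15A between 0.83 and 0.97, and ATF5 is negative with PPP1R15A (r = -0.74).

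ATF4 itself was closest to TRIB3, CEBPB and DDIT3. Of its 9 pairs, 3 had an adjusted p under 0.05 by Pearson's r. TRIB3 gave r = 0.91 (exact permutation p = 0.000716, adjusted p = 0.00645) and rho = 0.69 (exact permutation p = 0.044, adjusted p = 0.123), and r was 0.70 without Del52 replicate 1 and Ins5 replicate 1. CEBPB gave r = 0.87 (exact permutation p = 0.00455, adjusted p = 0.0165) with the same rho, and r was 0.49 without those 2 arrays, so this relation rested on them in part. DDIT3 gave r = 0.82 (exact permutation p = 0.00551, adjusted p = 0.0165) and rho = 0.73 (exact permutation p = 0.0315, adjusted p = 0.123), and r was 0.86 without the 2 arrays. By rho no pair of ATF4 passed after adjustment. For SESN2 and CEBPG, r was 0.72 and 0.71 over 9 arrays and 0.28 and 0.27 without Del52 replicate 1, so those values rested on that array. With ATF3, CHAC1 and PPP1R15A, r was 0.24, 0.43 and -0.01, and without Del52 replicate 1 it was -0.27, -0.12 and -0.31.

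PPP1R15A, ATF3, ATF5 and CHAC1 followed the first principal component. These are 4 of 10 with r of at least 0.7 in size, against 37.3% of all genes, a share close to that of the 10. PPP1R15A had r = 0.93 with it (exact permutation p = 0.000515, adjusted p = 0.00515 over the 10 genes) and rho = 0.92 (exact permutation p = 0.00131, adjusted p = 0.0131). ATF3 had r = 0.89 (exact permutation p = 0.00175, adjusted p = 0.00875) and rho = 0.83 (exact permutation p = 0.00827, adjusted p = 0.0276). ATF5 ran the other way, with r = -0.86 (exact permutation p = 0.00331, adjusted p = 0.011) and rho = -0.87 (exact permutation p = 0.00451, adjusted p = 0.0225). CHAC1 had r = 0.77 (exact permutation p = 0.0169, adjusted p = 0.0422) and rho = 0.75 (exact permutation p = 0.0255, adjusted p = 0.0637). Without wild-type replicates 2 and 3, the arrays at the ends, r was 0.87 for PPP1R15A, 0.79 for ATF3, -0.71 for ATF5 and 0.66 for CHAC1. Around the group means it was 0.97, 0.92, -0.97 and 0.85. Of these 4 genes, ATF3 and CHAC1 have a match to the C/EBP-ATF response element in the windows printed above. PPP1R15A has one to the other motif, the cAMP response element, and ATF5 has none. CEBPG, which has a match to the first motif, had r = 0.49 with this component. A relation between motifs and this component was not tested.

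ATF4, TRIB3, CEBPB, SESN2 and CEBPG followed the second component, on which Del52 replicate 1 lay far from the other 8 arrays. These are 5 of 10 with r of at least 0.7 in size, against 7.5% of all genes. For the first 4, r was -0.94, -0.93, -0.90 and -0.85 over 9 arrays (exact permutation p = 0.000292, 0.00382, 0.00224 and 0.00662, adjusted p = 0.00292, 0.0127, 0.0112 and 0.0166), with rho of -0.81, -0.92, -0.90 and -0.67 (exact permutation p = 0.011, 0.00131, 0.00203 and 0.0589, adjusted p = 0.0367, 0.0101, 0.0101 and 0.118). Without Del52 replicate 1 and wild-type replicate 1, r was -0.86, -0.83, -0.78 and -0.35, so the relation of SESN2 rested on those arrays. Around the group means it was -0.91, -0.93, -0.82 and -0.74. CEBPG had r = -0.82 (exact permutation p = 0.0115, adjusted p = 0.023) and rho = -0.63 (exact permutation p = 0.076, adjusted p = 0.127), and r was -0.49 without the same 2 arrays.

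**Figure D4:**
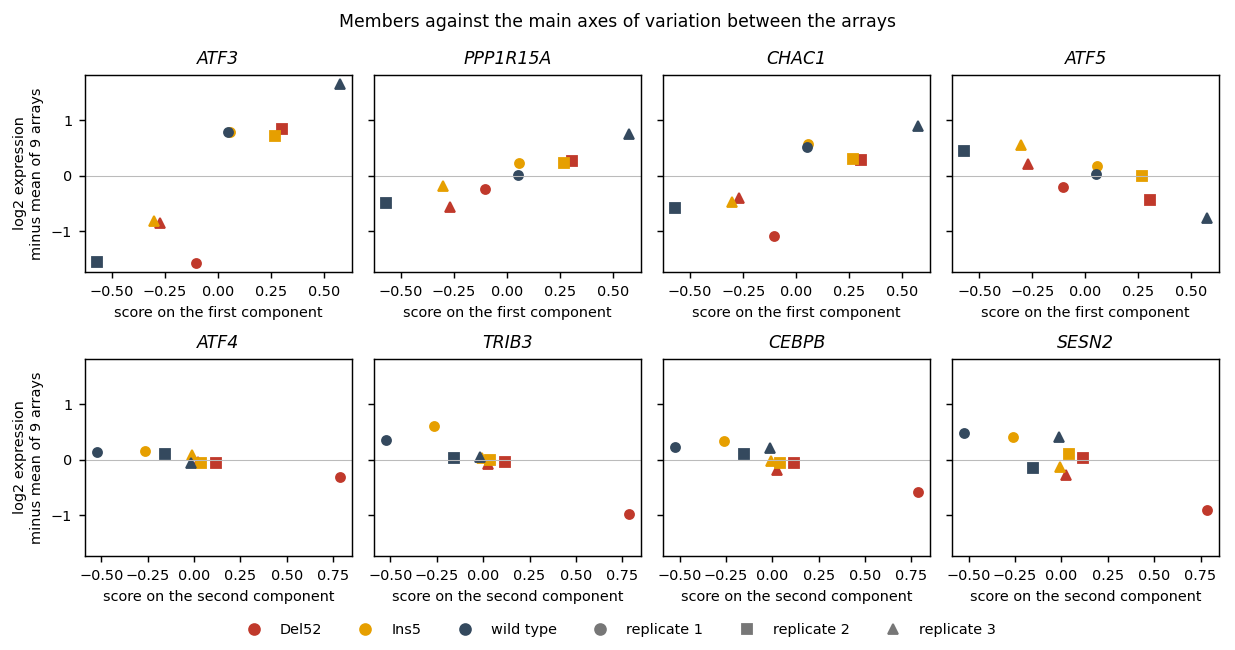
Log2 value of 4 genes against the first principal component (top row: ATF3, PPP1R15A, CHAC1, ATF5) and of 4 against the second (bottom row: ATF4, TRIB3, CEBPB, SESN2), 1 point per array, coloured by group. In the top row wild-type replicates 2 and 3 lie at the ends, and in the bottom row Del52 replicate 1 lies alone at 0.79.

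Del52 replicate 1 was the lowest array for 8 of the 10 genes and lay below the gene's mean for all 10. Its mean deviation from the genes' means was -0.69 log2 units, against 0.08 and -0.26 for the other Del52 arrays, 0.38, 0.11 and -0.08 for Ins5 and 0.30, -0.18 and 0.34 for wild type. On that array the labelling spike dap (middle probe set) read 6.80, the highest of the 9, and the hybridisation spike bioB read 6.18, against 6.15 and 6.07 on the other Del52 arrays, 5.98 to 6.04 in Ins5 and 5.88 to 6.02 in wild type. The signal of 18S ribosomal RNA was 10.80, 10.14 and 10.06 in Del52, 9.46, 9.72 and 8.63 in Ins5 and 9.30, 9.70 and 10.87 in wild type, so that Del52 lay above Ins5 with no overlap. The part of these signals in the result was not tested.

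With the first principal component as a covariate, the estimates for ATF5 and PPP1R15A had smaller errors. ATF5 differed by -0.43 ± 0.08 log2 units between Del52 and Ins5 (unadjusted p = 0.00101, limma adjusted p = 0.161), against -0.40 ± 0.31 without the covariate. On the other ATF5 probe sets that difference, without the covariate, was -0.271, -0.106 and -0.245. In Ins5 against wild type ATF5 differed by 0.33 ± 0.08 with the covariate (unadjusted p = 0.00436, limma adjusted p = 0.115). PPP1R15A differed by -0.23 ± 0.08 between Del52 and wild type (unadjusted p = 0.0242, limma adjusted p = 0.198). In the same contrast ATF3 differed by -0.7 ± 0.36 (unadjusted p = 0.0885, limma adjusted p = 0.332), against an SE of 0.94 without the covariate. CHAC1 differed by -0.63 ± 0.26 (unadjusted p = 0.0427, limma adjusted p = 0.243), against an SE of 0.48. In this fit 0 of the 10 passed in any contrast. At an unadjusted p under 0.05 there were 6 of 10 in Del52 against wild type (19.3% of all genes), 1 of 10 in Ins5 against wild type (19.0%) and 3 of 10 in Del52 against Ins5 (15.3%).

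The genes around the pathway were described from 5 lists. Of all genes, 45.4% were negative in Del52 against wild type and 54.6% in Del52 against Ins5. Of 21 amino acid enzymes and transporters induced by ATF4, all 21 had a negative log2 fold change in Del52 against wild type, with a median of -0.17, and 0 passed; the smallest p belonged to SLC7A11, the cystine transporter, at -1.15 ± 0.51 (limma adjusted p = 0.722). SLC7A11 read 5.67, 7.42 and 7.02 with Del52, 7.56, 7.40 and 7.17 with Ins5 and 8.71, 7.11 and 7.74 with wild-type CALR, so that Del52 and wild type overlapped. Its lowest array was Del52 replicate 1, so the size of its difference depends on that array too. In Ins5 against wild type 17 of the 21 were positive, where 59.6% of all genes were, with a median of 0.08 and the smallest p for the amino acid transporter SLC7A3 (0.09 ± 0.06, limma adjusted p = 0.841). In Del52 against Ins5 20 were negative, with a median of -0.33, and SLC7A1, another such transporter, had the smallest p (-0.38 ± 0.23, adjusted p = 0.952). Of 13 tRNA synthetases and tRNA export factors, 13 were negative in Del52 against wild type, with a median of -0.12, and 10 were positive in Ins5. Their smallest p belonged to TARS1 in Del52 (-0.13 ± 0.08, limma adjusted p = 0.842), EPRS1 in Ins5 (-0.16 ± 0.07, adjusted p = 0.651) and AARS1 between the mutants (-0.32 ± 0.14, adjusted p = 0.86). Both counts depended on Del52 replicate 1: without it 13 of 21 and 9 of 13 were negative, with medians of -0.03 and -0.01. Against Ins5 without that array, 20 of 21 and 10 of 13 were negative, with medians of -0.13 and -0.07. Of all 18239 genes in that fit, 8513 were negative against wild type and 10176 against Ins5.

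Of 18 secreted factors and stress effectors, 14 were negative in Del52 against wild type, with a median of -0.30, and KLHL24 had the smallest p, at -0.84 ± 0.25 (limma adjusted p = 0.603). In Ins5 against wild type 10 of 18 were positive, a share near that of all genes (59.6%). KLHL24 was again smallest in p (-0.43 ± 0.25, limma adjusted p = 0.779). In Del52 against Ins5 16 were negative, against 54.6% of all genes. There FGF21, a secreted growth factor, had the smallest p (0.18 ± 0.05, limma adjusted p = 0.841). Without Del52 replicate 1, 11 of the 18 were negative against wild type, with a median of -0.13, where 8513 of all 18239 genes were. The 22 genes that act on eIF2, its kinases, subunits, exchange factor and phosphatase, were evenly split, with 11 negative and a median of -0.01. Among them IMPACT, which restrains the kinase GCN2, had the smallest p, at -0.51 ± 0.10 in Del52 (limma adjusted p = 0.603) and -0.33 ± 0.10 in Ins5 (adjusted p = 0.581). IMPACT read 4.94, 5.03 and 5.2 with Del52, 5.22, 5.18 and 5.30 with Ins5 and 5.70, 5.65 and 5.36 with wild-type CALR, and neither mutant overlapped wild type. Between the mutants EIF2S1, a subunit of eIF2, had the smallest p (0.19 ± 0.08, limma adjusted p = 0.847). Of 29 other bZIP factors 19 were negative, against 45.4% of all genes, with a median of -0.04. Among them NFIL3, a repressor, differed by -0.61 ± 0.12 (limma adjusted p = 0.603). It read 5.50, 5.82 and 5.64 with Del52, 6.26, 5.86 and 5.94 with Ins5 and 6.17, 6.25 and 6.36 with wild-type CALR, with every Del52 array below every other. ATF6B, a relative of the ER stress sensor ATF6, had the smallest p in Ins5 against wild type (0.22 ± 0.05, limma adjusted p = 0.466) and between the mutants (-0.20 ± 0.05, adjusted p = 0.841). By limma 0 genes of any of the 5 lists passed in any contrast, and at an unadjusted p under 0.05 in Del52 against wild type the counts were 0 of 21, 0 of 13, 2 of 18, 4 of 22 and 3 of 29, in the order amino acid, tRNA, secreted and stress, eIF2 and bZIP, against 7.05% of all genes. Of the list genes named, FGF21 (2.56 to 2.85), SLC7A3, IMPACT, NFIL3 and ATF6B were below the brightest background probe set on all 9 arrays. KLHL24 was below it on every array but wild-type replicate 1 (6.82), and SLC7A11 was below it on Del52 replicate 1 (5.67). GPT2, ATF1 and MAFK were not analysed here.

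**Figure D5:**
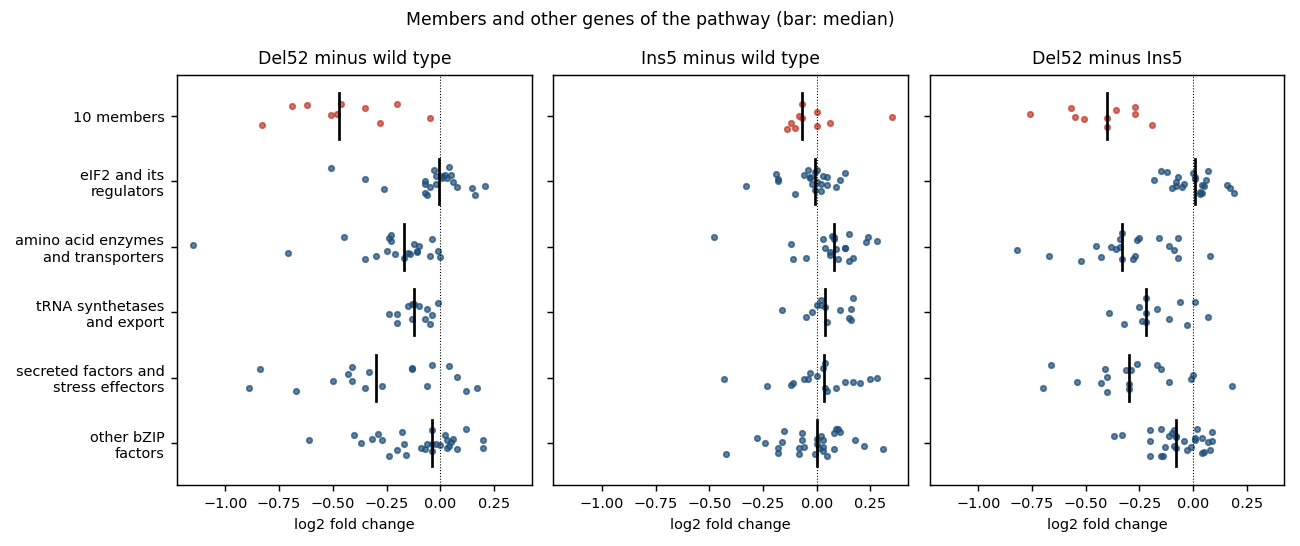
Log2 fold change of each of the 10 genes and of the genes of 5 lists, for each mutant against wild type and for Del52 against Ins5, 1 point per gene with a line at the median. In Del52 against wild type the median is -0.466 for the 10 genes, -0.17 for amino acid genes and -0.01 for eIF2 regulators.

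The genes whose levels over the 9 arrays were most like the mean of the 10 were G0S2 and STC2, both at r = 0.989, YBEY at 0.984, NF1 at 0.982 and KLF10 at 0.979. Those most like ATF4 were UBALD2 at 0.991, SLC43A1 at 0.978 and PIGV at 0.973. These values were picked as the highest of all genes and are given as a description, with no test.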

How the data were processed

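Gene expression was measured on 9 Affymetrix arrays of K562 cells. Per the labels' protocols, cells went through 4 infection cycles, NGFR-positive cells were selected to a purity above 90%, and RNA came from 100000 cells per sample. The authors deposited 1 value per probe set and array on a log2 scale. Partek and RMA are named in the submitters' processing notes, with no version; RMA corrects the background, brings the arrays to 1 distribution and combines the probes of a set. Arrays give no read depth, so their number limits the precision.

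Of 49386 probe sets, 93 were controls, 45253 had 1 symbol, 1327 several and 2713 none. Only those with 1 symbol were used, and 45172 matched RefSeq (GRCh38.p14) by gene identifier. The brightest probe set per gene gave 18239 genes. All entered 1 limma 3.58.1 fit (R 4.3.3) of all 9 arrays with a mean per group, two-sided moderated tests, 6 residual degrees of freedom and Benjamini-Hochberg adjustment at 0.05. The test was tested on simulated data. Correlations used exact permutation (Python 3.11.15, numpy 2.4.6).

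The 10 genes, the lists and the tests were chosen with earlier results of these data known. Named genes were the 10, the gene of each list with the smallest p per contrast, and those most like the 10 in profile. Groups share replicate numbers, and deviations of same-numbered arrays correlated between -0.92 and 0.64. Every such correlation with a wild-type array was negative. Between Del52 and Ins5 it was -0.56 for replicates 1, 0.64 for replicates 2 and 0.57 for replicates 3. The numbers were therefore not taken to pair the arrays over all 3 groups, and the main fit used no block. Whether Del52 and Ins5 replicates 2 and 3 share a batch or culture was not tested. The alternatives were the replicate block, quantile normalization, median centring, other probe sets, a filter, unmoderated variances, array weights, an intensity trend, fits of only the 6 arrays compared, a threshold of 0.1 and each array left out. The first principal component as a covariate was an alternative too, and leaving out both wild-type arrays at its ends was added after seeing the data, as were the correlations with both components, all 45 pairs with the shares over all genes set beside them, and the list counts without Del52 replicate 1.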

Additional observations from a re-analysis of the deposited data

How the results depend on the processing

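Quantile normalization and median centring left 10 of 10 genes negative in both contrasts of Del52. The replicate block gave 0 genes passing in every contrast, as did the fit without it, and left the median of the 10 at -0.466. With 1 array left out, that median lay between -0.594 and -0.287, and the count of the 10 at an unadjusted p under 0.05 reached 4. Array weights gave wild-type replicate 1 a weight of 66.973, against 0.237 to 1.816 for the others, and their estimation stopped before it converged. Under them 3190 genes passed in Del52 against wild type, 7 of the 10 among them (ATF4 at -0.323, limma adjusted p = 0.0209), 4017 in Ins5 against wild type and 5345 in the F test. Unmoderated variances gave 2, 9, 1 and 6 genes in Del52 against wild type, in Ins5 against wild type, between the mutants and in the F test, and the first component as covariate gave 4 and 7 against wild type and 2 in the F test, none of the 10 among them. Signs turned as follows, with no call and the cause not tested. In Del52 against wild type, ATF3 was 0.037 and 0.003 on dim probe sets, and ATF5 was 0.01 as the mean of its probe sets and 0.178 and 0.035 on 2 of them. In Del52 against Ins5, dim ATF3 probe sets gave 0.072 and 0.081. In Ins5 against wild type, 1 dim ATF3 probe set gave 0.046. PPP1R15A gave 0.012 after quantile normalization, 0.137 with array weights, 0.008 with the covariate and 0.071 without wild-type replicates 2 and 3, and TRIB3 gave -0.141 without those 2 arrays, where the lone wild-type array is assumed to vary like the other groups. With each array left out in turn, Del52 against wild type ranged between -0.386 and 0.218 for ATF5 and between -0.57 and 0.054 for PPP1R15A. Ins5 against wild type ranged between -0.063 and 0.056 for ATF4, -0.215 and 0.091 for DDIT3, -0.994 and 0.618 for ATF3, -0.226 and 0.056 for CEBPG, -0.139 and 0.171 for TRIB3, -0.569 and 0.168 for CHAC1, -0.297 and 0.326 for PPP1R15A and -0.312 and 0.017 for SESN2.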
